A study of Mus musculus with 6 samples.

Results

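Low levels of messenger RNA for blood-plasma proteins and liver enzymes were present in all 6 libraries from cultured mouse oligodendrocyte progenitor cells (OPCs), the dividing precursors of the brain's myelin-forming cells. This account covers 40 such genes of the 24421 genes listed in the count tables. The 40 symbols were chosen by name, with the difference between the study's groups already known, so their levels and differences below are a description and carry no test. All 40 symbols were found in the tables, and all 40 passed the filter on low counts that left 15906 genes in the tests.

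The study compared 3 control libraries, Prrc2bf/f, in which both copies of Prrc2b carry loxP sites, with 3 knockout libraries, Prrc2bf/f; Olig2-Cre, in which Cre driven by Olig2 deletes the floxed gene in cells of the oligodendrocyte lineage and in other cells that have expressed Olig2. All 6 came from the cortex of C57BL/6J pups at postnatal day 4, and control and knockout cells were treated alike: cells were depleted on dishes coated with antibody to GalC, captured with O4 antibody and then grown with factors that keep them dividing, namely PDGF-AA, bFGF, CNTF, NT3, forskolin, insulin and the N2 and B27 supplements. The design asks what loss of Prrc2b changes in OPC transcripts during hypomyelination. Whether a replicate was its own animal, a pool of pups or only its own culture is not stated, so what the spread between replicates, and any p-value, measures is not fully known.

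Most of the 40 genes encode proteins that hepatocytes secrete into blood. Albumin and the carrier proteins bind hormones, fatty acids, vitamins or haem, the apolipoproteins build lipoprotein particles, the serpins inhibit proteases, and the coagulation proteins form and dissolve clots. The serum amyloid A genes are acute-phase genes, which liver transcribes strongly during inflammation under cytokines of the interleukin-6 and interleukin-1 families. Healthy brain cells other than those of the choroid plexus and blood vessels make little of most of these transcripts, with exceptions such as Itih3, which astrocytes express.

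The upstream sequences of 5 genes are shown because their transcripts differed in opposite directions between the groups while sharing a motif. They are RefSeq sequences of build GRCm38.p6, written 5′ to 3′ on the strand of the gene and ending at or before the RefSeq transcription start. Capitals mark matches to the C/EBP motif (TTNNGCAA on either strand), the binding letters of the CCAAT/enhancer-binding proteins that drive many hepatocyte genes. Alb lies at chr5:90460620-90460869 (plus strand), Saa1 at chr7:46742981-46743230 (minus strand), Saa2 at chr7:46751583-46751789 (plus strand), Serpina1b at chr12:103738190-103738439 (minus strand) and Serpina1e at chr12:103956899-103957147 (minus strand).
Alb: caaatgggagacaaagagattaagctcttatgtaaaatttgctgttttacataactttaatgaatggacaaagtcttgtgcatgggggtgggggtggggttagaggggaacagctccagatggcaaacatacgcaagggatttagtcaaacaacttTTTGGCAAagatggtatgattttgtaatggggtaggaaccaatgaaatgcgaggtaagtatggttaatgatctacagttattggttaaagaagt
Saa1: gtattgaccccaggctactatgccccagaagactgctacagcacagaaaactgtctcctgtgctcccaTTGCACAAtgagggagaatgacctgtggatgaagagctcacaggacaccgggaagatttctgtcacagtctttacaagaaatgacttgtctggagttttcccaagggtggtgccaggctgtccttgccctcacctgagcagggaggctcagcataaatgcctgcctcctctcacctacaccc
Saa2: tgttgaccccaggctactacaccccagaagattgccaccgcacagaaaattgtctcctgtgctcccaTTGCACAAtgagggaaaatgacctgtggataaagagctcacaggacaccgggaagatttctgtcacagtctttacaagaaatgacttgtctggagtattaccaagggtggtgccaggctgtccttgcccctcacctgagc
Serpina1b: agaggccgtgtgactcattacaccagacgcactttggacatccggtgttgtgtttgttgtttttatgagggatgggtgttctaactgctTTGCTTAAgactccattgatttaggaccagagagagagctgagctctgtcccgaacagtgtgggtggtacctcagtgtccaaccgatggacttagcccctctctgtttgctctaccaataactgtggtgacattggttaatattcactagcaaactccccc
Serpina1e: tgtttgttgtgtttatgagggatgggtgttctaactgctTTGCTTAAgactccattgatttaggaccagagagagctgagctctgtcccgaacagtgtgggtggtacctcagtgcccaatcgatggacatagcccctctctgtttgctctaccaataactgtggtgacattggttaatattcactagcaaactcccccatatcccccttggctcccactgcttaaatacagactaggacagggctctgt

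Of the 40 genes, 32 matched a RefSeq promoter. The 250 bases upstream of the start held the C/EBP letters in 15 of these 32 genes (46.9%), against 9.56% of all 32851 promoters. For each motif a gene counted if any of its promoters matched, whereas the background counts each promoter singly, so the shares are unlike measures. The 15 also include copies with similar upstream windows, such as Saa1 and Saa2. The TATA box (TATAAA) was found in 7 of 32 (21.9%, against 12.4% of all promoters), the STAT motif (TTCNNNGAA) in 3 (9.38% against 7.02%), the HNF4 motif (CAAAGTCC) in 1 (3.13% against 1.20%) and the NF-kB motif (GGACTTTCC) in none (against 0.283%). Both strands were searched for each motif, and the TATA, STAT, HNF4 and NF-kB letters were not found in the upstream windows of the 5 genes shown. The C/EBP match ended 87 bases upstream of the start in Alb, 175 in Saa1, 176 in Saa2, 154 in Serpina1b and 204 in Serpina1e. The upstream windows of Saa1 and Saa2 were identical at 238 of 249 aligned bases, and those of Serpina1b and Serpina1e at 194 of 198, with the windows of the serpin pair offset against each other. A C/EBP match therefore stood upstream of genes that were higher in knockout libraries (Alb, Serpina1b) and of genes that were lower (Saa1, Saa2, Serpina1e). Such a match is a description of the letters and not a measured binding site.

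The libraries held between 26015604 and 28114968 read pairs counted in genes, and levels are given in CPM (a gene's counts divided by the library's total and scaled to a common size) after TMM normalisation. The cells' label was checked against 12 OPC markers, whose summed level was 2830 to 5609 CPM, and none of the 12 passed the test between groups. Of the 12, 3 were higher in every same-numbered knockout library and 1, Olig2, was lower. Olig2 was 360, 180 and 165 CPM in control and 342, 94.5 and 115 CPM in knockout replicates. Its adjusted p was 0.0533 in edgeR's fit that blocks on replicate number, with a log2 fold change of -0.50. Prrc2b itself was 932, 1111 and 925 CPM in control replicates 1, 2 and 3 and 649, 824 and 757 CPM in the knockout replicates, counted over the whole gene, so every knockout library was below every control library, with a log2 fold change of -0.41 ± 0.06 (SE). Same-numbered control and knockout libraries deviated together, so a fit that blocks on the replicate number is reported beside the fit without a block. Log2 fold changes and SE of single genes, that of Prrc2b included, are from the fit with the block unless stated otherwise. Without the block the SE of Prrc2b was 0.13. Without the block, edgeR's quasi-likelihood test passed 0 of 15906 genes (0%; 274 at an unadjusted p under 0.05) and DESeq2 passed 20 of 15894 genes (0.126%). With the block, edgeR passed 604 genes (3.8%), of which 250 were higher in knockout libraries (1.57%) and 354 were lower (2.23%). Sex-chromosome transcripts differed between libraries of one group: Xist counts were 25390, 61 and 78884 in control replicates and 74704, 71885 and 67 in knockout replicates, and Ddx3y counts were 3023, 4748 and 5 against 1, 989 and 4334. Replicates 2 and 3 of a group therefore did not come from the same animals. Control replicate 1 and knockout replicate 2 held both Xist and Ddx3y in quantity, so each had cells of both sexes, from more than 1 pup. Same-numbered libraries, which the block treats as pairs, did not match in these transcripts either. Whether the other libraries were pools is not known.

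All together the 40 transcripts were a trace of each library. They made up 0.0282%, 0.0209% and 0.0255% of gene counts in the control replicates and 0.0353%, 0.0384% and 0.0334% in the knockout replicates, with a 95% Wilson interval of 0.0346% to 0.0360% for knockout replicate 1, for example; such intervals cover counting error only. The summed level was 283, 215 and 254 CPM in control libraries (251 ± 34.2, SD, n = 3) and 351, 383 and 328 CPM in knockout libraries (354 ± 27.5, SD, n = 3). Every knockout sum lay above every control sum, a log2 difference of 0.50. Alb alone supplied 26.5%, 27.2% and 28.6% of the members' counts in control libraries and 37.4%, 38.3% and 36.7% in knockout libraries, and without Alb the log2 difference of the sum was 0.29. In bulk RNA, a different number of cells that make a transcript and a different amount of it per cell cannot be told apart. Whether cells of these cultures made the liver-type transcripts at all was not tested.

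The 40 transcripts did not move as one. With the block, 11 passed the threshold: Alb, Ahsg, Apoa1, Apoa4, Serpina1b and Kng1 were higher in knockout libraries, and Saa1, Saa2, Serpina1e, Mup3 and Serpina3k were lower, while 29 did not pass. Against a background of 3.8% of all genes in either direction, 1.57% higher and 2.23% lower, these counts carry no inference, since the genes were chosen on the same contrast. Without the block none of the 40 passed in edgeR (16 at an unadjusted p under 0.05), and DESeq2 without the block passed the same 11 among its 20 genes. Counting libraries, 15 of the 40 had all 3 knockout values above all 3 control values (background 2.75% of genes) and 6 had all of them below (background 3.6%), leaving 19 that overlapped. The median log2 fold change of the 40 was 0.22, beside 0.00 for all genes tested, and the range ran from -4.16 for Saa2 to 2.29 for Apoa4.

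**Figure D1:**
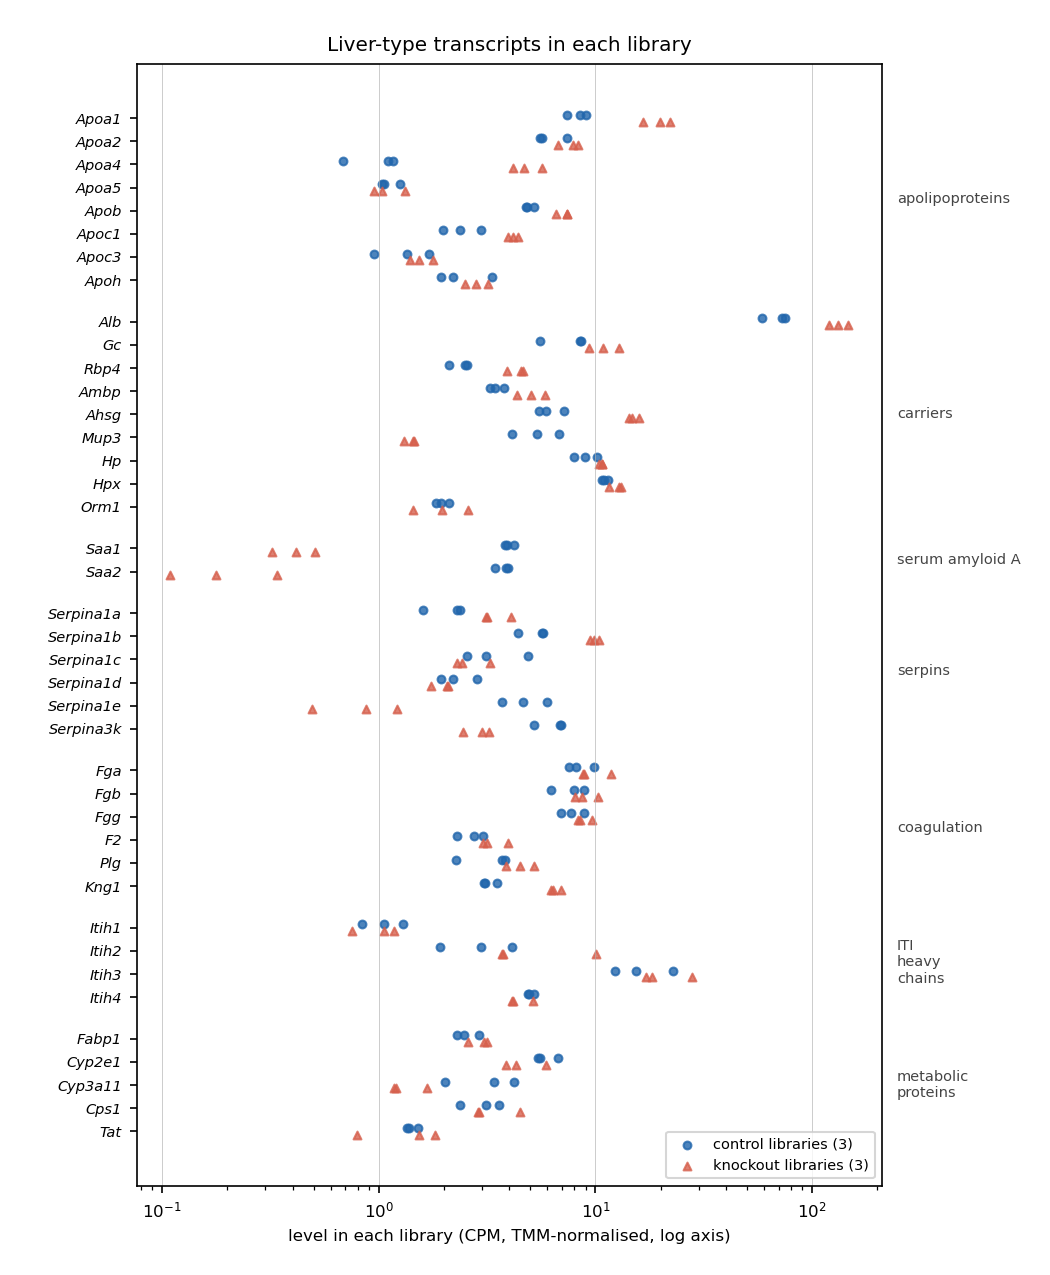
Level of each of the 40 liver-type transcripts in each of the 6 libraries, in TMM-normalised CPM on a log axis; circles are the 3 control libraries and triangles the 3 knockout libraries, and genes are grouped by role. Alb stands far above the rest, Saa1, Saa2, Serpina1e and Mup3 have all knockout points to the left of the control points, and Apoa4, Apoa1, Ahsg and Kng1 have them to the right.

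The plot of levels by library sets out these values by role. Control means ran from 0.987 CPM for Apoa4 to 68.7 CPM for Alb with a median of 3.63 CPM, and knockout means from 0.209 CPM for Saa2 to 133 CPM for Alb with a median of 4.41 CPM. Divided by exon length, Alb was highest in both groups, at 29.3 CPM per kb in control and 56.6 CPM per kb in knockout libraries. The lowest were Itih1 in control libraries, at 0.323 CPM per kb, and Saa2 in knockout libraries, at 0.0830 CPM per kb.

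Among the carrier proteins, Alb and Ahsg were higher in every knockout library and Mup3 was lower. Alb, the main protein of plasma, was 75.1, 58.4 and 72.5 CPM in control replicates and 131, 146 and 120 CPM in knockout replicates, a log2 fold change of 0.95 ± 0.10 (SE). The lowest knockout library was well above the highest control library. Ahsg, which encodes fetuin-A, an inhibitor of mineral deposition, was 7.12, 5.49 and 5.94 CPM against 14.7, 15.9 and 14.3 CPM, a log2 fold change of 1.28 ± 0.14 (SE) with the 2 groups far apart. Mup3, a major urinary protein that carries pheromones in adult mice, was 6.79, 4.12 and 5.38 CPM in control replicates and 1.31, 1.46 and 1.43 CPM in knockout replicates, a log2 fold change of -1.93 ± 0.25 (SE). Its 3 knockout values were close together and all below the lowest control value.

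The other 6 carriers did not pass with the block. Rbp4, the plasma retinol carrier, was 2.51, 2.10 and 2.55 CPM against 3.89, 4.63 and 4.53 CPM. Gc, the vitamin D-binding protein, was 8.56, 5.53 and 8.52 CPM against 10.8, 12.9 and 9.29 CPM. Ambp, which encodes alpha-1-microglobulin and bikunin, was 3.801, 3.43 and 3.25 CPM against 4.33, 5.87 and 5.02 CPM. In each of these 3 genes every knockout library lay above every control library, with log2 fold changes of 0.87, 0.55 and 0.53. Hp, the haemoglobin-binding haptoglobin, was 10.1, 7.97 and 8.95 CPM against 10.7, 10.7 and 10.4 CPM. Hpx, the haem-binding hemopexin, was 11.4, 10.8 and 10.998 CPM against 13.1, 12.8 and 11.6 CPM. Both were separated between groups by small margins. Orm1, the acute-phase orosomucoid, was 2.10, 1.83 and 1.94 CPM against 2.58, 1.96 and 1.43 CPM and overlapped, with a log2 fold change of 0.00 ± 0.29 (SE).

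Among the 8 apolipoproteins, 2 passed with the block, both higher, and 6 did not pass. Apoa1, the main protein of high-density lipoprotein, was 9.005, 7.36 and 8.49 CPM in control replicates and 19.9, 22.1 and 16.6 CPM in knockout replicates, a log2 fold change of 1.23 ± 0.14 (SE). Apoa4, made by intestine and liver, was 1.11, 0.687 and 1.17 CPM against 4.70, 5.69 and 4.15 CPM, a log2 fold change of 2.29 ± 0.30 (SE). The lowest knockout value of Apoa4 was above 3 times its highest control value.

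Apob, the structural protein of very-low-density lipoprotein, was 4.76, 4.81 and 5.20 CPM against 7.35, 7.40 and 6.57 CPM. Apoc1, a small exchangeable apolipoprotein, was 2.36, 1.98 and 2.97 CPM against 4.15, 4.41 and 3.93 CPM. Both had every knockout library above every control library, with log2 fold changes of 0.53 ± 0.17 and 0.78 ± 0.24 (SE). Apoa2, another protein of high-density lipoprotein, was 7.38, 5.57 and 5.66 CPM against 6.70, 8.33 and 7.89 CPM. Apoc3, an inhibitor of lipoprotein lipase, was 1.70, 0.954 and 1.34 CPM against 1.53, 1.78 and 1.40 CPM. Apoa5, an activator of the same lipase, was 1.25, 1.03 and 1.06 CPM against 0.946, 1.03 and 1.32 CPM. Apoh, a phospholipid-binding plasma protein, was 3.32, 1.95 and 2.19 CPM against 2.80, 3.20 and 2.49 CPM. The groups overlapped in these last 4 genes.

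Apoa1, Apoc3, Apoa4 and Apoa5 are neighbours within 43.3 kb of chromosome 9 (46228580 to 46271919), and their log2 fold changes ran from -0.03 for Apoa5 to 2.29 for Apoa4. In control libraries the ratio of Apoa4 to Apoc3 counts was 0.652, 0.720 and 0.868, and in knockout libraries it was 3.07, 3.20 and 2.97. The ratio was thus tight within each group and differed between them.

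The serum amyloid A genes had the widest differences of the 40. Saa1 was 3.84, 3.89 and 4.21 CPM in control replicates (104, 102 and 119 counts) and 0.510, 0.320 and 0.415 CPM in knockout replicates (14, 9 and 11 counts), a log2 fold change of -3.25 ± 0.32 (SE). Saa2 was 3.95, 3.43 and 3.85 CPM (107, 90 and 109 counts) against 0.109, 0.178 and 0.340 CPM (3, 5 and 9 counts), a log2 fold change of -4.16 ± 0.41 (SE). Both genes were even across the 3 control libraries and low in all 3 knockout libraries.

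The 2 genes are near-identical copies within 13.8 kb of chromosome 7 (46740497 to 46754313), but 97.9% of the 150-base windows of Saa1 transcripts and 98.0% of those of Saa2 occur in no other annotated gene. Summed over both copies, the level was 7.79, 7.32 and 8.06 CPM in control replicates and 0.619, 0.498 and 0.755 CPM in knockout replicates, a log2 difference of -3.65. The pair made up 2.75%, 3.404% and 3.18% of the members' counts in control libraries and 0.176%, 0.130% and 0.230% in knockout libraries. Saa2 was 50.7%, 46.9% and 47.8% of the pair in control libraries and 17.6%, 35.7% and 45.0% in knockout libraries, where the 95% Wilson intervals were wide, from 6.19% to 41.0% in replicate 1 and from 25.8% to 65.8% in replicate 3. Of the other acute-phase members, Hp, Hpx, Orm1 and the 3 fibrinogen chains did not pass, with log2 fold changes of at most 0.24.

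The serpins went in both directions. Serpina1a to Serpina1e are 5 copies of the alpha-1-antitrypsin gene within 231 kb of chromosome 12 (103728156 to 103958975), which encode inhibitors of neutrophil elastase and related proteases. Serpina1e was 5.98, 4.61 and 3.71 CPM in control replicates and 0.874, 1.21 and 0.491 CPM in knockout replicates, a log2 fold change of -2.49 ± 0.29 (SE). Serpina1b was 5.68, 4.39 and 5.73 CPM against 9.46, 10.4 and 9.82 CPM, a log2 fold change of 0.92 ± 0.16 (SE). The groups did not overlap for either copy.

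Serpina1a was 2.29, 1.60 and 2.37 CPM against 3.13, 4.09 and 3.17 CPM and was higher in every knockout library, but did not pass. Serpina1c was 4.87, 2.56 and 3.11 CPM against 2.29, 3.27 and 2.42 CPM. Serpina1d was 2.84, 1.95 and 2.19 CPM against 1.75, 2.06 and 2.08 CPM. The last 2 overlapped between groups. Serpina3k, a kallikrein inhibitor outside the Serpina1 family, was 6.90, 5.23 and 6.86 CPM against 2.44, 3.24 and 2.98 CPM, a log2 fold change of -1.13 ± 0.21 (SE) with no overlap.

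Summed over the 5 Serpina1 copies, the groups overlapped, at 21.7, 15.1 and 17.1 CPM in control replicates and 17.5, 21.1 and 18.0 CPM in knockout replicates, a log2 difference of 0.08. Their makeup differed. Serpina1e took 27.6%, 30.6% and 21.7% of the copies' counts in control libraries and 4.99%, 5.74% and 2.73% in knockout libraries. Its 95% Wilson interval reached down to 18.3% in control replicate 3 and up to 7.92% in knockout replicate 2. Serpina1b took 26.2%, 29.0% and 33.5% against 54.1%, 49.5% and 54.6%. The share of 150-base windows found in no other gene was 92.6% for Serpina1e and 88.1% for Serpina1b, but 64.9% for Serpina1a, 76.7% for Serpina1d and 49.5% for Serpina1c, so the split among these last 3 copies is uncertain.

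**Figure D2:**
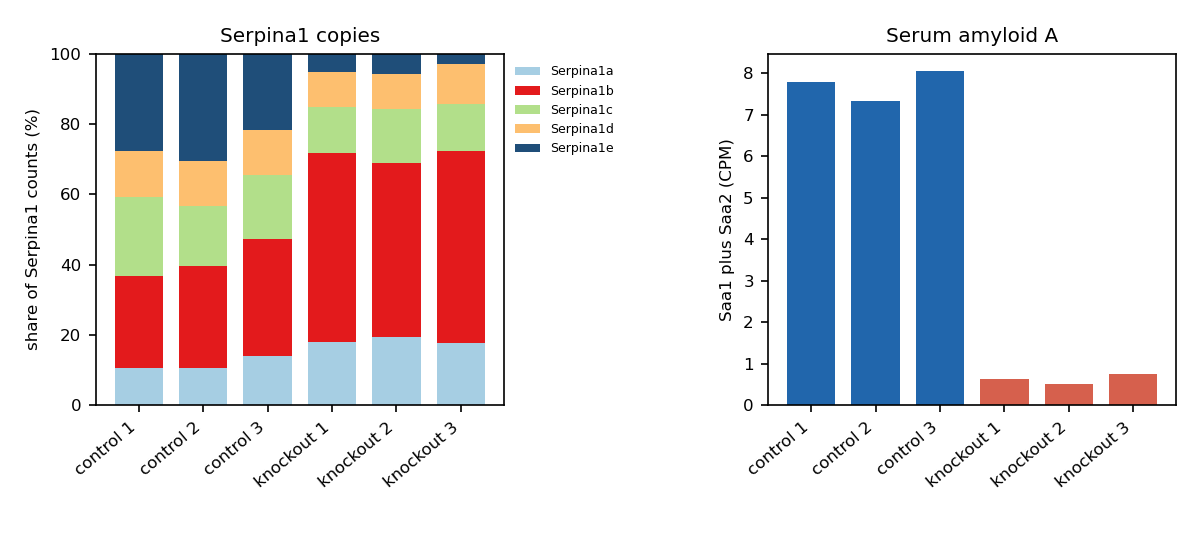
Left, share of the counts of the 5 Serpina1 copies taken by each copy in each library, in percent; right, summed level of Saa1 and Saa2 in each library, in CPM from 0. Serpina1e takes 21.7% to 30.6% of the copies' counts in control libraries and at most 5.74% in knockout libraries, and the Saa sum is at least 7.32 CPM in control and at most 0.755 CPM in knockout libraries.

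The plot of copy shares shows the opposite behaviour of the 2 families: the Serpina1 total overlapped between groups while its copies traded places, and the Saa total was lower with both copies reduced.

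Of the 6 coagulation genes, 1 passed with the block. Kng1, the kininogen from which bradykinin is cut, was 3.10, 3.05 and 3.50 CPM in control replicates and 6.33, 6.94 and 6.23 CPM in knockout replicates, a log2 fold change of 1.01 ± 0.19 (SE), with no overlap. The 3 fibrinogen chains, whose product forms the clot, lie within 42.1 kb of chromosome 3 (83007724 to 83049863) and overlapped between groups. Fga was 9.85, 7.55 and 8.17 CPM against 8.77, 11.8 and 8.87 CPM. Fgb was 8.89, 6.25 and 7.92 CPM against 8.66, 10.2 and 8.04 CPM. Fgg was 8.89, 6.90 and 7.71 CPM against 8.26, 9.68 and 8.46 CPM. Their log2 fold changes lay between 0.17 and 0.23, and the 3 chains kept similar levels to each other in each library. F2, or prothrombin, was 3.03, 2.29 and 2.76 CPM against 3.97, 3.17 and 3.02 CPM and overlapped. Plg, or plasminogen, which dissolves clots, was 3.84, 3.70 and 2.26 CPM against 4.48, 5.20 and 3.85 CPM, with every knockout library above every control library by a narrow margin.

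None of the 4 inter-alpha-trypsin inhibitor heavy chains, which bind hyaluronan in the matrix, passed. Itih1 was 1.29, 0.839 and 1.06 CPM against 1.06, 1.17 and 0.755 CPM. Itih2 was 2.95, 1.91 and 4.10 CPM against 3.75, 3.70 and 10.1 CPM, with knockout replicate 3 the highest, and each knockout library was above the control library of the same number. Itih3 was 22.7, 12.3 and 15.4 CPM against 27.9, 17.2 and 18.3 CPM, with replicate 1 highest in both groups. Itih4 was 4.95, 5.19 and 4.88 CPM against 4.11, 5.12 and 4.15 CPM. All 4 overlapped between groups.

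None of the 5 intracellular metabolic genes passed. Cyp3a11, a drug-metabolising cytochrome P450, was 4.21, 2.02 and 3.39 CPM in control replicates and 1.20, 1.67 and 1.17 CPM in knockout replicates; it was lower in every knockout library, with a log2 fold change of -1.21 ± 0.35 (SE). Cyp2e1, the ethanol-inducible cytochrome P450, was 6.68, 5.45 and 5.55 CPM against 4.30, 5.91 and 3.85 CPM. Fabp1, the liver fatty acid-binding protein, was 2.92, 2.29 and 2.48 CPM against 2.58, 3.06 and 3.17 CPM. Cps1, the first enzyme of the urea cycle, was 3.58, 2.36 and 3.11 CPM against 2.91, 4.48 and 2.87 CPM. Tat, tyrosine aminotransferase, was 1.51, 1.37 and 1.34 CPM against 1.53, 1.81 and 0.793 CPM. The groups overlapped in the 4 genes other than Cyp3a11.

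**Figure D3:**
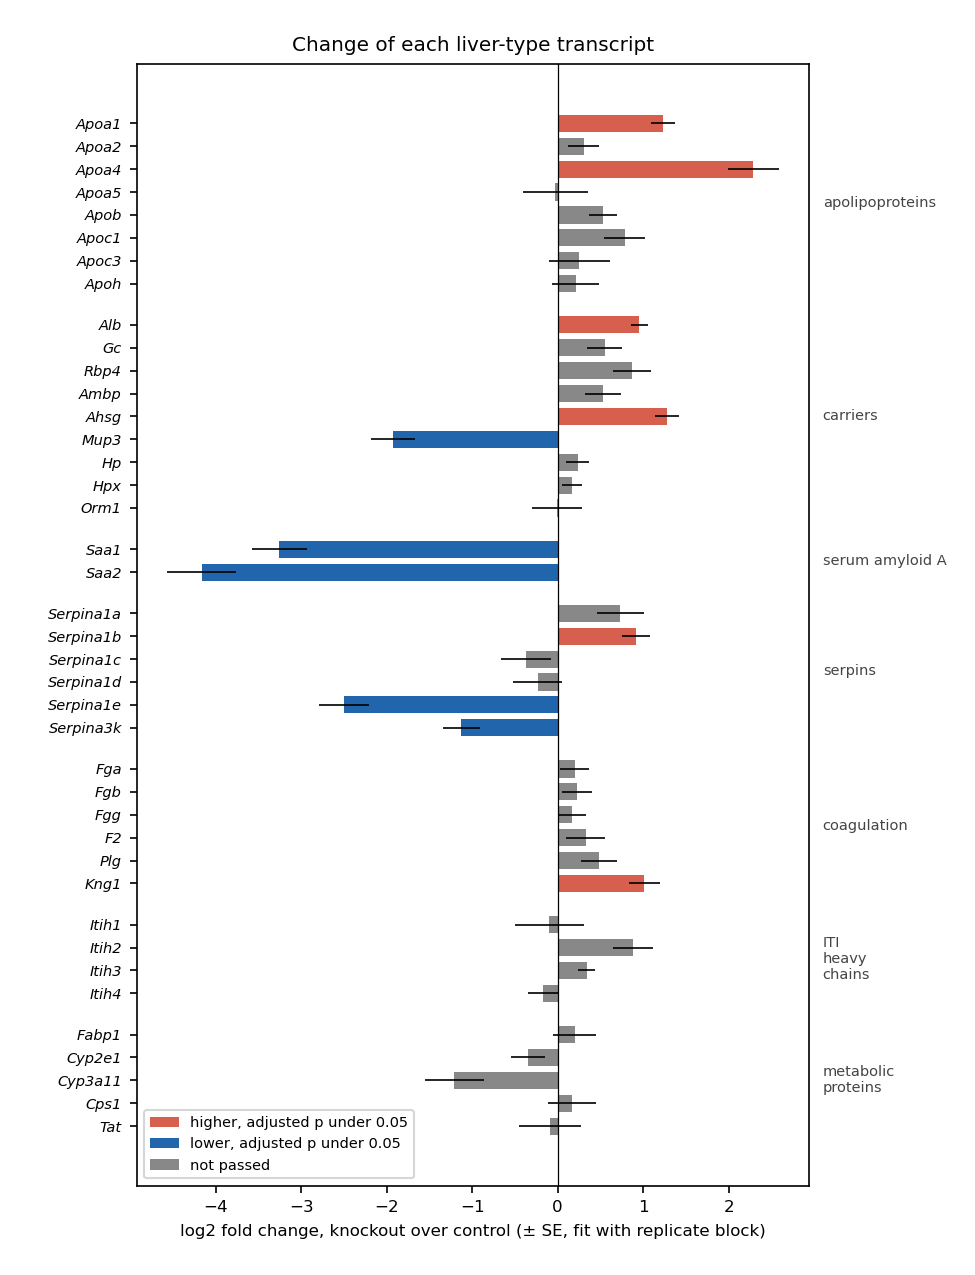
Log2 fold change of each of the 40 transcripts, knockout over control, in the fit with the replicate block; error bars are SE and genes are grouped by role. Red and blue bars mark the 6 higher and 5 lower genes that passed the adjusted threshold of 0.05, and grey bars the 29 that did not; bars run from -4.16 for Saa2 to 2.29 for Apoa4.

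The plot of changes shows that no role group of 3 or more genes passed as a whole: apolipoproteins had 2 higher of 8, carriers 2 higher and 1 lower of 9, serpins 1 higher and 2 lower of 6, and coagulation genes 1 higher of 6. Not passing is not the same as not differing. All 6 coagulation genes had log2 fold changes above 0, from 0.17 to 1.01. Of the 9 carriers, 7 had every knockout library above every control library (2.75% of all genes), 1 had them below (3.6%) and 1 overlapped. Of the 11 genes that passed, 8 also passed in all 8 settings tried with the block, and all 11 kept one sign in each setting that tested them (19 or 20 settings, since the filter at a mean of 5 CPM removed some). The exceptions, all in edgeR's blocked fit, were Serpina1b, which missed the threshold without replicate 3 (adjusted p of 0.0721), Kng1, which missed it without replicate 3 (0.0733) and without replicate 1 (0.0548), and Serpina3k, which missed it without replicate 3 (0.122) and without replicate 1 (0.0893).

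Ratios between members do not depend on the library total, and 6 of them were computed. The ratio of Alb to Fga counts was 7.63, 7.74 and 8.87 in control replicates and 15.0, 12.4 and 13.5 in knockout replicates. The ratio of Alb to Serpina3k was 10.9, 11.2 and 10.6 against 53.8, 45.2 and 40.3. The ratio of Alb to Mup3 was 11.1, 14.2 and 13.5 against 100, 100 and 83.8. In these 3 ratios, as in that of Apoa4 to Apoc3, the libraries of a group lay close together. Ratios with low counts varied more: Alb to Saa1 was 19.6, 15.0 and 17.2 in control and 257, 457 and 289 in knockout replicates, and Serpina1b to Serpina1e was 0.9506, 0.9504 and 1.54 against 10.8, 8.62 and 20.0. In all 6 ratios the groups did not overlap. The pairs were picked by hand, each with a member separated upward over a member that was lower or overlapped. The lack of overlap was thus largely set by that choice and carries no test.

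The spread within a group was measured without using the difference between groups, as an index of dispersion in which 1 is counting error alone. Relative to library totals the median index of the 40 genes was 2.77 in control and 1.94 in knockout libraries, and their median coefficient of variation beyond counting error was 11.9% and 9.82%. The 11625 other tested genes in the same range of mean counts had a median coefficient of 16.8% and 16.6% on that scale. Within that range their median mean count was higher, at 538.5 against 99.6 for the 40. Relative to the summed counts of the other members, the median index of the 40 was 0.777 in control and 1.35 in knockout libraries, with 26 and 25 of the 40 genes under 2. That second scale takes out variation that the 40 genes share, so it gives no comparison with other genes. These values describe genes that share libraries, with no test.

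Relative to the sum of the other members, 5 genes had an index above 5 in control libraries: Itih3 (18.8), Plg (8.78), Itih2 (8.503), Serpina1e (5.61) and Alb (5.46). In knockout libraries only Itih2 (82.8) and Itih3 (59.9) did. The index grows with the count, which favours Alb and Itih3 in this order. Of the 40 transcripts, 30 were highest in replicate 1 and 33 lowest in replicate 2 among the controls. Among the knockouts, 30 were highest in replicate 2, 22 lowest in replicate 3 and 15 lowest in replicate 1. Control replicate 2 was thus low and knockout replicate 2 high for most of them.

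**Figure D4:**
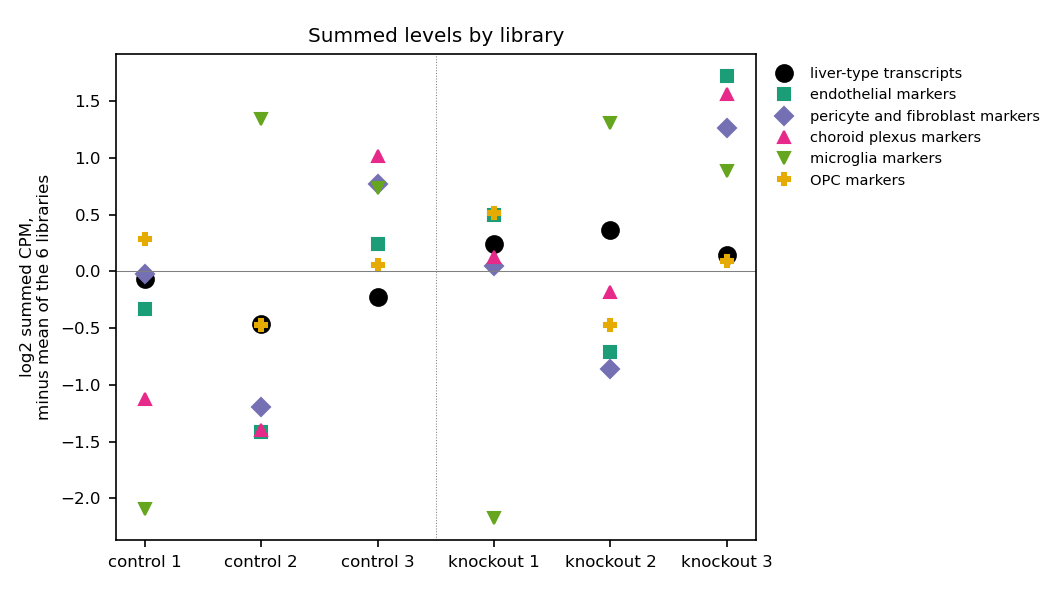
Summed CPM of the 40 liver-type transcripts and of marker lists for 5 other cell types in each library, as log2 with the mean of the 6 libraries subtracted. The liver-type sum is higher in the 3 knockout libraries than in the 3 control libraries, while the other 5 lists rank same-numbered libraries alike in both groups.

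Markers of other cell types were present and differed between libraries, as the plot of summed levels shows. Endothelial markers summed to 146, 68.9 and 217 CPM in control replicates and 259, 112 and 605 CPM in knockout replicates; with the block 14 of 19 passed, all higher (1.57% of all genes), and 1 of 19 had knockout values all above control values (2.75% of all genes). Pericyte, fibroblast and meningeal markers summed to 948, 421 and 1639 CPM against 997, 531 and 2310 CPM, with 4 of 18 passing, all higher, against the same 1.57%. Choroid plexus and ependymal markers summed to 447, 370 and 1970 CPM against 1061, 856 and 2875 CPM, with 7 of 14 passing, all higher, against the same 1.57%. For microglia and macrophages the sums were 39.9, 434 and 283 CPM against 37.9, 423 and 315 CPM, and 0 of 15 passed. In every one of these lists the sums of the 2 groups overlapped and same-numbered libraries ranked alike, whereas the liver-type sums did not overlap and replicate 2 ranked lowest in control and highest in knockout libraries. The part of these cell types in the liver-type values was not tested.

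Red blood cell markers were uneven: 6 of 14, the haemoglobin genes, were listed at 0 in all 6 libraries. Whether the counting could assign reads to these near-identical genes was not tested, so the zeros do not show that blood RNA was absent. Alas2, the erythroid enzyme of haem synthesis, was 21.4, 6.06 and 3.54 CPM against 21.003, 4.77 and 5.44 CPM. Of 14 intestinal epithelium markers, 5 could be tested and 0 passed, with sums of 12.2, 13.2 and 7.50 CPM against 14.5, 14.3 and 8.31 CPM, and the intestinal transcription factors Cdx1 and Cdx2 were at 0 counts in every library. In edgeR's fit without a block these lists also had 0 genes passing, and 0 at an unadjusted p under 0.05.

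Other liver genes were examined from 2 lists of genes outside the 40, also drawn up with earlier results known. Of 98 listed, 77 could be tested, and 5 passed with the block, all higher, beside 1.57% of all genes in that direction. Without the block 0 passed in edgeR (9 at an unadjusted p under 0.05) and 2 in DESeq2, Trf and Cyp2a5. The median log2 fold change was 0.49 over the 41 secreted proteins tested and 0.16 over the 36 enzymes and transporters, with 16 genes separated upward and 8 downward (2.75% and 3.6% of all genes). As among the 40, most of these listed genes did not pass. Outside both lists, the major urinary protein gene Mup7 was lower and Cyp2a4 higher in knockout libraries, and both passed with the block. Their log2 fold changes were -4.26 and 3.64, with adjusted p of 0.00435 and 0.00258 in edgeR's blocked fit. Both genes were named after their values were seen. Strongly lower genes that passed were thus not confined to the 40.

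Trf, the iron carrier transferrin, which oligodendrocytes also express, rose from 36.9, 35.9 and 42.6 CPM to 73.1, 86.0 and 86.7 CPM, a log2 fold change of 1.09 ± 0.07 (SE; adjusted p of 0.00042 in edgeR's blocked fit). Pzp, a protease-trapping plasma protein, rose from 6.46, 4.61 and 5.06 CPM to 9.10, 11.03 and 9.21 CPM, a log2 fold change of 0.87 (adjusted p of 0.0308 in the same fit, but 0.0798 without replicate 2 and 0.125 without replicate 3). The groups did not overlap for either gene. Ttr, the thyroid hormone carrier and a main product of choroid plexus, was 247, 290 and 1746 CPM against 812, 670 and 2570 CPM and passed with the block (log2 fold change of 1.16, adjusted p of 0.00870 in edgeR) although the groups overlapped. Vtn, or vitronectin, also a pericyte marker, was 18.3, 14.4 and 88.5 CPM against 24.1, 18.8 and 123 CPM (log2 fold change of 0.42, adjusted p of 0.0131 in edgeR's blocked fit and 0.205 without replicate 3) and overlapped in the same way. Ttr and Vtn were high in replicate 3 of both groups, as were the choroid plexus and pericyte sums that include them. The sum of the 40 genes had no such order, although Itih2 among them was also highest in replicate 3 of both groups.

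Among the enzymes, Cyp2a5, a coumarin hydroxylase, rose from 0.221, 0.305 and 0.177 CPM (6, 8 and 5 counts) to 3.39, 3.99 and 2.83 CPM (93, 112 and 75 counts), a log2 fold change of 3.84 ± 0.36 (SE; adjusted p of 0.00222 in edgeR's blocked fit). Its near-identical neighbour Cyp2a4, named after its values were seen, was 7, 6 and 7 counts against 98, 74 and 83 counts; how far reads could be shared between the 2 genes was not measured. Pck1, the gluconeogenic enzyme, was 2.18, 1.91 and 1.66 CPM against 2.44, 3.10 and 2.94 CPM. Cyp2d26, another cytochrome P450, was 1.03, 1.11 and 0.919 CPM against 1.60, 2.60 and 1.81 CPM. Slc27a2, a fatty acid transporter, was 1.59, 1.03 and 2.30 CPM against 2.18, 2.53 and 2.72 CPM. These last 3 did not pass.

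**Figure D5:**
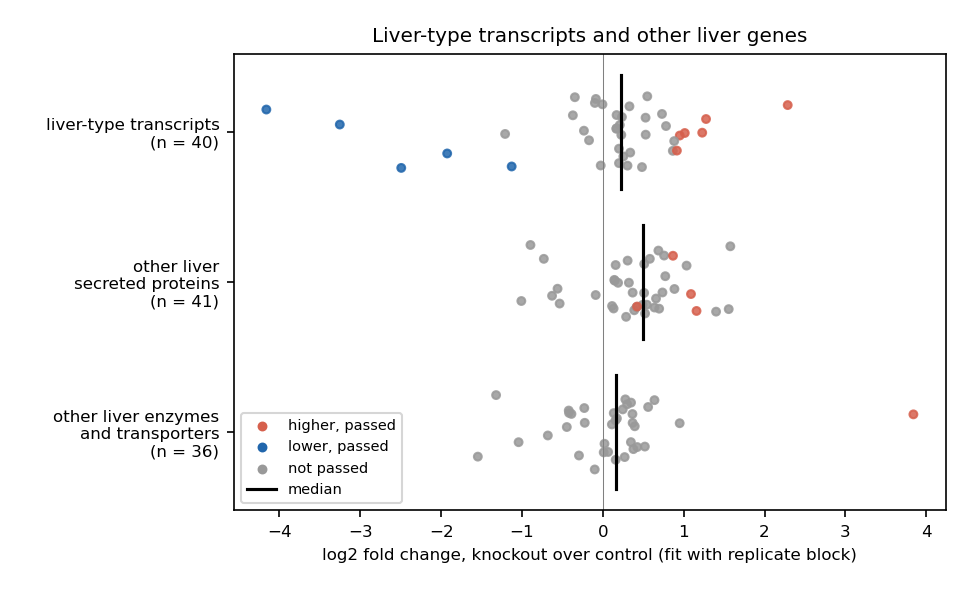
Log2 fold change, knockout over control, in the fit with the replicate block, for the 40 liver-type transcripts, 41 other secreted liver proteins and 36 other liver enzymes and transporters; each point is a gene, vertical lines are medians (0.22, 0.49 and 0.16) and colours mark genes that passed. Points vary only for display along the vertical axis. The 5 strongly lower points of the first row have no counterpart that passed in the other 2 lists, and Cyp2a5 stands alone at 3.84.

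The plot of other liver genes shows the spread of these differences in both directions around medians above 0. Transcription factors of hepatocytes were low or were also expressed by other cells. Of 17 listed, 8 could be tested, and 1 passed with the block, higher, beside 1.57% of all genes in that direction. Without the block 0 passed (3 at an unadjusted p under 0.05, 0 in DESeq2). Ppara, a fatty acid-sensing nuclear receptor, was 5.24, 3.09 and 4.60 CPM against 8.08, 5.41 and 7.66 CPM, a log2 fold change of 0.72 ± 0.17 (SE; adjusted p of 0.0490 in edgeR's blocked fit, and 0.0861 to 0.209 when a pair of libraries was left out). Hnf4a, a master regulator of hepatocytes, had 10, 19 and 16 counts against 33, 37 and 27 counts and did not pass. Every knockout library was above the highest control library for Hnf4a. The 3 factors of highest level did not pass: Prox1, also a factor of neural progenitors, at 116, 83.7 and 72.4 CPM against 100, 75.6 and 65.8 CPM, Cebpa, also a myeloid factor, at 5.68, 27.1 and 10.8 CPM against 5.21, 16.7 and 9.10 CPM, and Onecut2 at 5.09, 8.70 and 7.60 CPM against 5.10, 8.65 and 9.48 CPM. The fetal liver gene Afp had 0, 14 and 0 counts in control replicates and 6, 25 and 3 counts in knockout replicates.

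Related genes that brain cells themselves express were examined for comparison. Of 14 brain apolipoproteins and lipid carriers tested, 3 passed with the block, all higher, beside 1.57% of all genes in that direction. All 3 overlapped between groups. Clu was 262, 127 and 268 CPM against 342, 187 and 298 CPM. The lipocalin gene Apod was 4.76, 2.97 and 14.5 CPM against 9.61, 4.45 and 38.3 CPM. The cholesterol exporter gene Abca1 was 224, 137 and 313 CPM against 284, 195 and 343 CPM. Of 19 acute-phase and STAT3-response genes of glia, 5 passed higher and 1 lower, beside 1.57% and 2.23% of all genes. The intermediate filament gene Gfap was 169, 64.0 and 89.0 CPM against 217, 99.6 and 142 CPM and rose by 0.55 on the log2 scale. The oncostatin M receptor gene Osmr was 9.56, 1.33 and 11.1 CPM against 12.9, 3.10 and 24.7 CPM and rose by 0.89. The copper carrier gene Cp was 15.7, 7.78 and 30.5 CPM against 23.7, 14.9 and 37.8 CPM and rose by 0.59. The CNTF receptor gene Cntfr was 58.3, 81.5 and 61.9 CPM against 47.0, 69.8 and 49.6 CPM and fell by 0.28. The groups overlapped in all 4 of these genes, and the adjusted p-values in edgeR's blocked fit were 0.00362, 0.0278, 0.0319 and 0.0328. Without replicate 3 those of Osmr, Apod, Cp and Cntfr were 0.231, 0.162, 0.0590 and 0.129, and Cp and Cntfr also missed the threshold without replicate 1 (0.0581 and 0.111) and without replicate 2 (0.0785 and 0.0716). A further 2 genes of this list were named after their values were seen. Lcn2, the acute-phase lipocalin, had 11, 11 and 26 counts against 63, 79 and 48 with no overlap and rose by 2.00 on the log2 scale (adjusted p of 0.0369 in edgeR's blocked fit, but 0.102 without replicate 1 and 0.122 without replicate 2). Saa3, a serum amyloid A gene also made outside the liver, had 4, 13 and 10 counts against 4, 1 and 3, too few to be tested, and in CPM every knockout library was below every control library.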

How the data were processed

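Poly(A) RNA from 3 control and 3 knockout OPC libraries was sequenced as 150-base read pairs with a dUTP strand-marking kit, per the labels' protocols. The deposited values are raw counts per gene; HISAT2 2.2.1, HTSeq 0.12.4, DESeq2 1.26.0 and build mm10 are named in the submitters' processing notes, and strand setting and annotation were not stated there. The 5 summary entries of each table that name no gene, among them 18.9% to 21.3% of read pairs in no feature, entered neither library sizes nor tests. Depth was 26015604 to 28114968 gene counts per library.

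The main test was edgeR 4.0.16 (R 4.3.3) with TMM, filterByExpr, a quasi-likelihood fit on group and Benjamini-Hochberg adjustment over 15906 genes, with a threshold of 0.05; fold changes include edgeR's default prior count and SE is derived from the F statistic. An alternative fit blocks on replicate number, and the log2 fold changes and SE printed for single genes are from it unless stated otherwise. Numbers 1 to 3 recur in both groups' labels, and the deviations of same-numbered libraries from their group means correlated at 0.778, 0.751 and 0.726 across genes, which was taken as pairing; edgeR's biological coefficient of variation dropped from 0.315 to 0.104 when the block was added. DESeq2 1.42.0, other normalisations, no filter, a filter at a mean of 5 CPM and leaving out each library were alternatives. Scripts were tested on simulated counts. The 40 genes and all lists were chosen with earlier results of these data known.

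Named genes are all 40 members; from each other list at most the 4 genes with the smallest blocked p among those tested at a mean of at least 1 CPM, plus, for transcription factors and red blood cell markers, those of highest level; and Prrc2b. Other genes were named after their values were seen, namely Hnf4a, Afp, Cdx1, Cdx2, Cyp2a4, Mup7, Lcn2, Saa3 and the sex-chromosome and sex-predominant genes. Promoter sequences come from RefSeq (GRCm38.p6) and gene positions from GENCODE M21 (GRCm38), bases in annotated exons being removed from the sequences shown. Some listed items are not reported here. Copy uniqueness is the share of a gene's 150-base transcript windows found in no other gene's transcripts.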

Additional observations from a re-analysis of the deposited data

Results flagged for a closer look

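Read pairs that were not assigned to a gene took a larger share of all 3 knockout libraries than of any control library. Pairs in no annotated feature averaged 20.8% in knockout and 19.7% in control libraries. Pairs with low alignment quality averaged 3.83% against 3.11%, and unaligned pairs 1.25% against 1.03%. These entries lie outside the gene counts, and their part in the liver-type values was not tested.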

How the results depend on the processing

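The 11 genes that passed with the block kept their sign in every setting that tested them, but not their calls. Several of the other 29 changed sign between settings. Orm1, for example, ran from -0.21 to 0.21 on the log2 scale, Tat from -0.35 to 0.24 and Apoa5 from -0.20 to 0.17. With the replicate block 604 genes, 11 of the 40, 5 other liver genes and 1 hepatocyte transcription factor passed, against 0 of each without it in edgeR under every normalisation, filter and omission tried. DESeq2 passed 20, 11, 2 and 0 without the block and 680, 11, 5 and 0 with it. With the block and 1 pair of libraries left out, the counts were 448, 521 and 174 genes without replicates 1, 2 and 3, 10, 12 and 8 of the 40, 5, 5 and 3 other liver genes and 0 transcription factors each time; Ppara thus passed only with all 3 pairs. Added after seeing the data, the block gave 573, 11, 5 and 1 with DESeq2 size factors, 502, 11, 5 and 1 with library totals, and 1034, 14, 6 and 1 without a filter. The cause of these differences was not tested. The block changed the calls named in the text. The summed values come from no fit, so the block could not change them.

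The log2 difference of the members' sum was 0.50, ran from 0.34 to 0.60 when libraries were left out, and was 0.29 without Alb; that of the Saa sum ran from -3.80 to -3.50 and that of the Serpina1 sum from -0.12 to 0.28. Leaving out 1 library without the block reversed the sign of some genes outside the 40, and the log2 fold change then ran from -0.0429 to 2.33 for Ttr, from -0.92 to 1.76 for Vtn and from -0.0788 to 2.18 for Apod (each lowest without knockout replicate 3), from -0.36 to 0.0458 for Prox1, from -1.02 to 0.33 for Cebpa, from -0.0725 to 0.34 for Onecut2 and from -1.02 to 1.12 for Alas2. With the block and a pair left out, the range was -0.000978 to 0.17 for Onecut2 and -0.16 to 0.24 for Alas2. Low counts limit the precision of Saa2 in knockout libraries, Afp, Saa3 and several sex-predominant genes.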

Other observations

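Genes with a known sex bias in adult mouse liver were listed after values were seen and are given as counts with no test. Of 10 genes that adult male liver expresses more strongly, 6 had all knockout libraries below all control libraries (3.6% of all genes tested), 1 had them above (2.75%) and 3 overlapped. The 6 were Mup3, Mup7 (79, 60 and 75 counts against 2, 7 and 2), Mup20 (207, 82 and 119 against 76, 74 and 46), Mup14 (9, 4 and 5 against 0, 0 and 0), the fatty acid elongase Elovl3 (13, 12 and 15 against 1, 0 and 7) and the steroid enzyme Hsd3b5 (5, 2 and 4 against 0, 0 and 0). Cyp4a12a went the other way, at 2, 1 and 1 counts against 4, 3 and 2, and Cyp2d9, Cyp7b1 and Slco1a1 overlapped.

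Of 5 genes that adult female liver expresses more strongly, 2 had all knockout libraries above all control libraries (against the same 2.75%): Cyp2a4 at the values above and Cyp2b9 (0, 2 and 0 counts against 7, 9 and 8). Cyp3a41a, Cyp3a44 and Sult3a1 overlapped, with at most 2 counts in any library. The libraries' own sex-chromosome transcripts did not divide by group: Eif2s3y, on the Y chromosome, had 1693, 2328 and 1 counts in control replicates and 3, 311 and 2164 in knockout replicates. Counts under about 10 carry wide counting error, and how far reads are shared among Mup7, Mup14 and Mup20 was not measured. The shares of all genes printed beside these counts are over genes that passed the filter on low counts. Mup14, Hsd3b5, Cyp4a12a and Cyp2b9 had at most 9 counts in any library, so those shares are not a like background for them.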
